A study of Mus musculus with 17 samples.

Results

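The microRNAs (miRNAs) described here are 4 groups known for their roles in lymphocytes and other blood cells: miR-142a, miR-150, miR-342 and the miR-181 family, measured in vesicles from mouse feces. They were chosen as a list of 10 mature arms, and 8 of the 10 were present in a table of 1487 small RNAs (smRNAs), of which 1439 were mature miRNAs. The 8 were mmu-miR-142a-3p, mmu-miR-150-5p, mmu-miR-150-3p, mmu-miR-342-3p, mmu-miR-181a-5p, mmu-miR-181b-5p, mmu-miR-181c-5p and mmu-miR-181d-5p, written below without the species prefix. The arms miR-142a-5p and miR-342-5p were not analysed here.

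A miRNA hairpin is cut into a 5p and a 3p arm, and the arm loaded into an Argonaute protein pairs with target mRNAs mainly through its seed, bases 2 to 8. miR-142 is made across the blood lineages, so it marks leukocytes in general rather than lymphocytes alone. miR-150 is abundant in mature B, T and NK cells and represses the transcription factor Myb, the miR-181 family is high in thymocytes and tunes T cell receptor signalling, and miR-342 lies in an intron of the host gene Evl and is expressed in blood cells. Vesicles in feces can come from any cell facing the gut lumen, and the counts do not say which cells released these miRNAs.

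The sequences below, taken from RefSeq (GRCm38.p6), show which of these miRNAs share a seed and how closely the miR-181 members resemble one another. Capitals mark the seed, and 7 of the 8 were matched by name.
miR-142a-3p: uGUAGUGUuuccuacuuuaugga
miR-150-3p: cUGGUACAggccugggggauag
miR-342-3p: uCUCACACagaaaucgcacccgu
miR-181a-5p: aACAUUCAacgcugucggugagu
miR-181b-5p: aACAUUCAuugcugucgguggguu
miR-181c-5p: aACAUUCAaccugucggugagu
miR-181d-5p: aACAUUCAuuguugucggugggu

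The 4 miR-181 arms shared the seed ACAUUCA, and no other matched miRNA of the table carried it. The seeds of miR-142a-3p, miR-150-3p and miR-342-3p were each held by no other matched miRNA. miR-181b-5p and miR-181d-5p were the most alike in ungapped alignment, with 1 substitution, C12U, counted from the 5′ end of miR-181b-5p, and lengths of 24 and 23 bases. miR-181a-5p and miR-181c-5p were 1 base apart when a gap was allowed, at 23 and 22 bases. How reads that fitted several family members were assigned is not given in the sources used here, so the split of counts between these arms carries that uncertainty.

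The hairpins lie at 6 places in the genome (GRCm38.p6, GENCODE vM21). Mir142 is at chr11:87756864-87756927 in an intron of the noncoding gene Mir142hg, and Mir142b overlaps it on the opposite strand. Mir150 is at chr7:45121757-45121821, outside any annotated gene. Mir342 is at chr12:108658620-108658718, on the same strand as Evl and in one of its introns. Mir181a-1 and Mir181b-1 lie 97 bases apart on chromosome 1, over an exon of the noncoding gene A430106G13Rik. Mir181a-2 and Mir181b-2 lie 1019 bases apart on chromosome 2, antisense to Nr6a1 within its intron, and the mature miR-181a-5p and miR-181b-5p can each come from either pair. Mir181d and Mir181c lie 85 bases apart on chromosome 8 in an intron of Nanos3.

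All libraries came from IL-10 KO mice, which lack the anti-inflammatory cytokine interleukin 10, on the C57BL/6J background. The mice were obtained at 4 weeks of age and housed one to a cage. Wild-type libraries were not analysed here. The start-point group held 10 libraries from 7 male and 3 female mice, and the end-point group held 7 libraries from 6 mice, all of which also had a start-point library. The end-point libraries numbered 1 and 2 both carried the label of mouse 1. The labels give neither the ages at the time points nor a measure of disease, so age and disease cannot be told apart in the comparison of time points. Each extraction used 2 fecal pellets, and exosomes, small secreted vesicles, were precipitated from the filtered homogenate.

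Total counts ranged from 87527 to 178075 at the start-point and from 32320 to 161862 at the end-point. Below 75000 counts were end-point libraries 1, 3 and 7, in which 3 counts stood for 54.8, 92.8 and 47.0 CPM (counts scaled to a fixed library total), against at most 34.3 CPM in any start-point library. The start-point libraries were divided into 2 clusters, a number fixed in the clustering, by Spearman correlation of 1257 smRNAs. The miRNAs described here and their opposite arms were left out. Replicates 1, 4, 6 and 7, all male, formed the smaller cluster. The mean correlation was 0.741 within clusters and 0.494 between them, from the same correlations that formed the clusters. Markers of other cell types were present throughout: 8 of 9 listed epithelial miRNAs were in the table, with a summed level of 3226 to 19689 CPM at the start-point and 2970 to 38181 CPM at the end-point. For smooth muscle, 4 of 6 were present, at 432 to 2190 CPM and 1087 to 12387 CPM. Both myeloid arms of miR-223 summed to 145.8 to 555 CPM and 219 to 1831 CPM. Of the red cell list 3 of 5 were present, at 263 to 1064 CPM and 49.4 to 767 CPM, and of the neuron list 3 of 3, at 255 to 845 CPM and 179 to 933 CPM. Neither of the 2 endothelial arms was analysed here. Between time points 6 of the 8 epithelial and 3 of the 4 smooth muscle miRNAs passed the test described below, in both directions, against 33.7% of all smRNAs, and 1 of 8 and 2 of 4 with mouse as a block, against 8.19%. Of the 2 myeloid arms, miR-223-3p rose by 2.38 ± 0.55 (log2 fold change, SE), the other arm had -0.44 and was not called, and neither was called with mouse as a block. Their part in the results below was not tested.

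The 8 miRNAs were minor components of the libraries. Together they made up 0.0933% to 0.48% of the counts in a library, and their summed level was 1585 to 4729 CPM at the start-point and 933 to 4804 CPM at the end-point. By mean CPM over all libraries, miR-142a-3p ranked 276 of 1487 and miR-181b-5p ranked 1071, the highest and the lowest of the 8. At the start-point the order of mean levels was miR-142a-3p (956 CPM), miR-342-3p (598 CPM), miR-181c-5p (387 CPM), miR-181a-5p (351 CPM), miR-181d-5p (229 CPM), miR-150-3p (207 CPM), miR-150-5p (174 CPM) and miR-181b-5p (95.7 CPM). At the end-point it was miR-181c-5p (788 CPM), miR-181a-5p (341.9 CPM), miR-142a-3p (299 CPM), miR-181b-5p (183 CPM), miR-342-3p (139 CPM), miR-150-5p (106 CPM), miR-150-3p (85.6 CPM) and miR-181d-5p (50.6 CPM). No neighbours in either order differed by more than the larger of their SDs. The order compares counts of mature miRNAs of similar length, and ligation and amplification can differ between sequences.

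**Figure D1:**
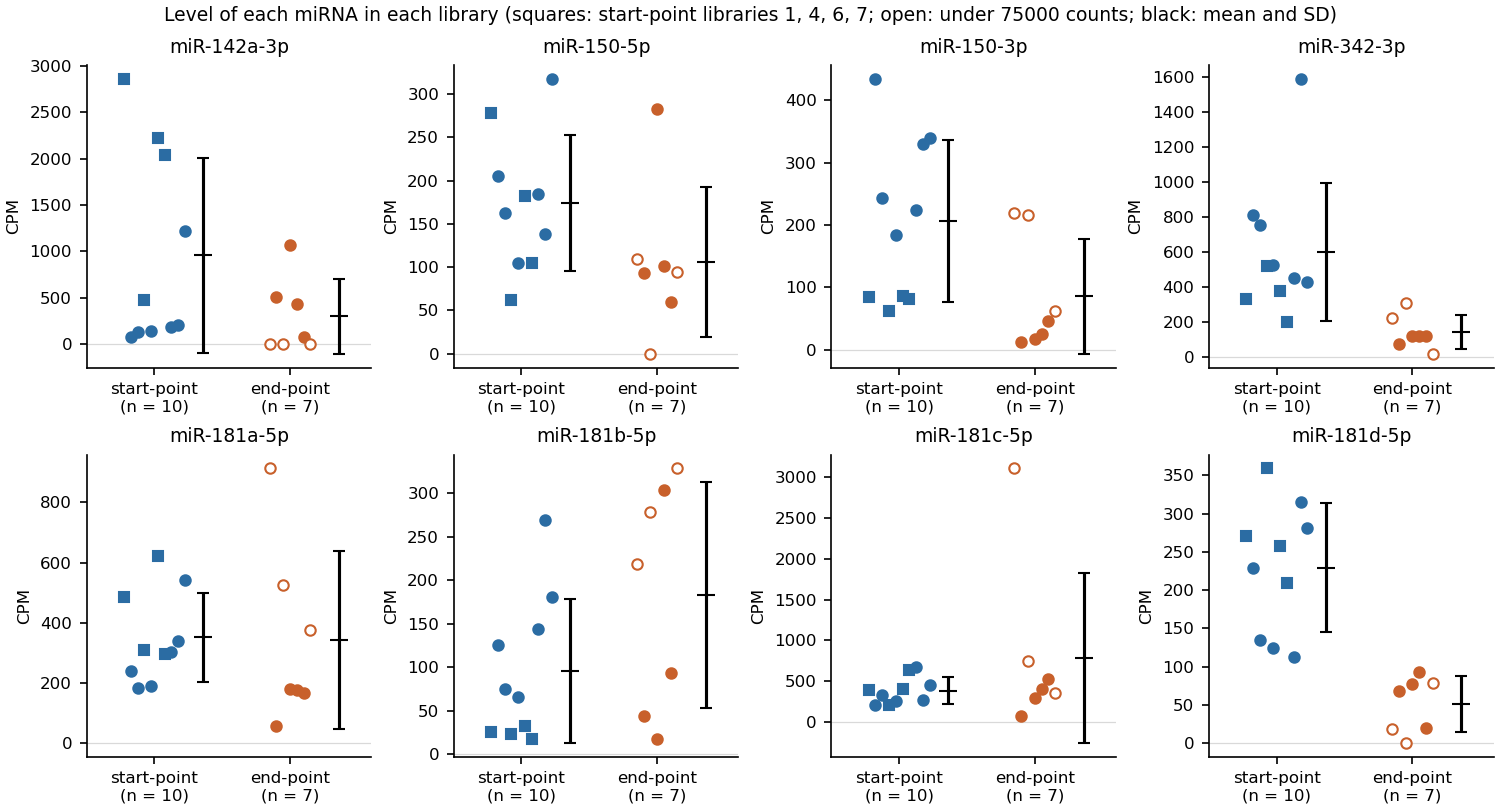
Level of each of the 8 miRNAs in each library, in CPM of the library total on a linear axis that differs between panels, with start-point libraries in blue and end-point libraries in orange and the mean and SD in black. Squares are start-point replicates 1, 4, 6 and 7 and open circles are the end-point libraries under 75000 counts; only miR-181d-5p shows no overlap between time points, and the squares lie low for miR-150-3p and miR-181b-5p.

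The time points were compared with edgeR's quasi-likelihood test over all 1270 smRNAs that passed the filter on low counts, with Benjamini-Hochberg adjustment. All 8 miRNAs passed that filter. Of the 8, 2 were called at an adjusted p under 0.05 (25.0%), against 33.7% of all smRNAs tested, so the share called was no higher than in the table as a whole. miR-342-3p fell, a direction called for 16.3% of all smRNAs, and miR-181b-5p rose, a direction called for 17.4%. Their median log2 fold change was -0.39, beside -0.18 over all smRNAs tested, with 4 positive and 4 negative values. When libraries were scaled by their totals alone the medians were -1.0 and -0.65, a downward shift of most smRNAs, and 2 of 8 were again called (miR-342-3p and miR-181d-5p) against 37.8% of all.

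miR-342-3p showed the most reproducible difference. Its level at the start-point had a lowest value of 198, a median of 482 and a highest value of 1590 CPM, and at the end-point the corresponding values were 15.7, 119 and 309 CPM. All 7 end-point libraries lay below the start-point median and 5 of 7 below every start-point library, with end-point libraries 1 and 3, at 219 and 309 CPM, inside the start-point range. The fold change was -1.60 ± 0.43 (log2, SE), a level 3.04-fold lower at the end-point, with an adjusted p of 0.00663 by edgeR. The call held when any 1 of the 17 libraries was left out, with log2 fold changes between -1.69 and -1.30. In each of the 6 mice with both time points the end-point level was lower (the 2 libraries of mouse 1 averaged), with a median difference in log2 CPM of -1.13. Mouse 11 had the steepest difference, -4.99, from a library with 1 count, and in the other 5 mice the difference lay between -1.60 and -0.62. The call was lost without the larger cluster of start-point libraries, where the log2 fold change was -1.19 (adjusted p 0.118 by edgeR), while without the smaller cluster it was -1.78 (adjusted p 0.0119). With mouse as a block the call was also lost, at -1.61 (adjusted p 0.124 by edgeR). Without the second end-point library of mouse 1 that fit gave -1.69 (adjusted p 0.133).

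miR-150 is represented by both arms of its hairpin. miR-150-5p, usually the more abundant arm in lymphocytes, ranged from 61.8 to 317 CPM at the start-point with a median of 172 CPM, and from 0 to 282 CPM at the end-point with a median of 94.0 CPM. The groups overlapped, and 6 of 7 end-point libraries lay below the start-point median. Its log2 fold change was 0.11 ± 0.54 (SE; adjusted p 0.889 by edgeR), and the sign turned to -0.65 with library totals alone, so no direction was established. In end-point library 3 it had 0 counts, which allows a level of up to 92.8 CPM.

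miR-150-3p ranged from 61.8 to 434 CPM at the start-point with a median of 204 CPM, and from 12.4 to 219 CPM at the end-point with a median of 46.3 CPM. End-point libraries 1 and 3 stood at 219 and 217 CPM, whereas the other 5 lay at or below 62.6 CPM, and the groups overlapped. The log2 fold change was -1.10 ± 0.45 (SE), short of the threshold at an adjusted p of 0.0573 by edgeR. In log2 CPM with TMM factors the difference was negative in all 6 mice with both time points, with a median of -1.18 and a range of -2.02 to -0.36. The -0.36 is that of mouse 1, whose 2 end-point libraries were averaged. By library totals these stood at 219.2 and 12.4 CPM, either side of its start-point level of 83.9 CPM. Without the 3 libraries under 75000 counts the log2 fold change was -1.84 with an adjusted p of 0.00383 by edgeR, and 33.6% of smRNAs were called in that fit. In the end-point group 3 of the 7 values rest on 3 counts or fewer.

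The log2 ratio of miR-150-5p to miR-150-3p within a library does not depend on the scaling between libraries. It averaged -0.09 ± 0.92 (SD, n = 10) in start-point and 0.60 ± 2.53 (SD, n = 7) in end-point libraries. The difference of 0.70 had a two-sided p of 0.437 by exact permutation (0.65 adjusted over 3 arm ratios). In the 4 deeper end-point libraries the difference was 2.23 with an exact p of 0.005, and without end-point library 3, where the ratio was -3.91 from 7 counts in all, it was 1.45 with an exact p of 0.0412. Without end-point library 4 it was 0.18 (exact p 0.836), and without end-point library 2 it was 0.36 (exact p 0.689). The p-values of these subsets were not adjusted. In 5 of 7 end-point and 3 of 10 start-point libraries the 5p arm exceeded the 3p arm. The end-point ratios ranged from -3.91 to 3.74 and those of the start-point from -1.23 to 1.69, and few end-point counts stand behind them. The 2 arms together reached 20 counts in only 1 of 7 end-point libraries, against 10 of 10 at the start-point.

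miR-142a-3p, the general leukocyte miRNA of the list, varied most among start-point libraries. It had a lowest value of 80.0, a median of 342.4 and a highest value of 2858 CPM there, a 35.7-fold range. Replicates 1, 6, 7 and 10 stood at 1218 CPM or above, replicate 4 stood at 477 CPM and the other 5 lay at or below 207 CPM. At the end-point the values were 1069 CPM in library 4, 513 CPM in library 2, 430 CPM in library 5 and 79.4 CPM in library 6. Libraries 1, 3 and 7 had 0 counts, which at their depth allows levels of up to 54.8, 92.8 and 47.0 CPM. In libraries 1 and 7 that limit lies below the lowest start-point value and in library 3 above it. The log2 fold change was -0.84 ± 1.03 (SE; adjusted p 0.55 by edgeR). It turned to 0.10 without those 3 libraries and to 1.48 without the smaller cluster of start-point libraries, neither of which was called (adjusted p 0.942 and 0.313 by edgeR). Within mice, the level was lower in 5 of 6, with differences in log2 CPM from -4.60 to 3.73. The -4.60 is that of mouse 1, whose 2 end-point libraries, with 0 and 83 counts, were averaged. Mice 3 and 11 had 0 counts at the end-point, so the size of their differences, -3.09 and -3.13, depends on the prior count added. The antisense neighbour miR-142b held at most 19 counts in a library.

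Within the miR-181 family the members did not move together. miR-181b-5p rose: its start-point values had a lowest of 17.5, a median of 69.9 and a highest of 269 CPM, and its end-point values a lowest of 17.1, a median of 219 and a highest of 329 CPM. End-point libraries 3, 5 and 7 stood above every start-point library, and the groups overlapped. Library 4 had 2 counts (17.1 CPM), too few to place it below the lowest start-point library, with 3 counts (17.5 CPM). The log2 fold change was 1.45 ± 0.47 (SE), a 2.73-fold higher level with an adjusted p of 0.0185 by edgeR. In log2 CPM with TMM factors miR-181b-5p was higher in 5 of 6 mice, and in mouse 5 the difference was -0.74. By library totals it was also lower in mouse 9, with 144.1 CPM at the start-point and 92.7 CPM at the end-point. Counts were small, with a median of 10.5 at the start-point and 12 at the end-point. The call was lost without end-point library 5 (1.13, adjusted p 0.0754 by edgeR), with library totals alone (0.92, adjusted p 0.216) and without the smaller cluster of start-point libraries (0.97, adjusted p 0.141). That cluster held the 4 lowest start-point values of miR-181b-5p, 17.5 to 32.2 CPM against 65.5 to 269 CPM in the other 6. Against the smaller cluster alone the log2 fold change was 2.83 (adjusted p 0.00776).

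By CPM of library totals, miR-181d-5p was the one arm whose levels did not overlap between time points, which held for 5.59% of all smRNAs tested. With the TMM factors used for the fold changes they did overlap. Log2 CPM was then 7.31 at the end-point in mouse 5 and 6.54 at the start-point in mouse 9. The start-point libraries had a lowest value of 112, a median of 243 and a highest value of 359 CPM, and the end-point libraries a lowest of 0, a median of 68.0 and a highest of 92.8 CPM. Even so, its log2 fold change of -1.38 ± 0.57 (SE) missed the threshold with edgeR, at an adjusted p of 0.0638. It passed with library totals alone (-2.06, adjusted p 0.00493) and with DESeq2 (-1.33, adjusted p 0.0408). It was -0.71 (adjusted p 0.24 by edgeR) without the 3 libraries under 75000 counts, -0.80 (adjusted p 0.363) without the smaller cluster of start-point libraries and -1.49 (adjusted p 0.211) with mouse as a block. End-point counts ran from 0 to 11, and 3 of the 7 libraries had 3 counts or fewer. In log2 CPM with TMM factors the level was lower in 5 of 6 mice, with mouse 5 at 0.21.

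miR-181c-5p had a start-point range of 206 to 672 CPM with a median of 369 CPM, and an end-point range of 74.1 to 3105 CPM with a median of 405 CPM. End-point library 1 stood far above the rest, and the next highest was 743 CPM. The log2 fold change was 1.06 ± 0.45 (SE; adjusted p 0.0724 by edgeR), and it was 0.40 without that library. miR-181a-5p, the family member best known in T cell development, ranged from 182.3 to 623 CPM at the start-point and from 55.6 to 913 CPM at the end-point, with medians of 307 and 180 CPM. Its log2 fold change of 0.06 ± 0.39 (SE; adjusted p 0.92 by edgeR) turned to -0.04 with library totals alone.

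Expressed as shares of the 4 arms together, the make-up of the family can be read within each library. Start-point libraries held 22.2% ± 8.13 (SD, n = 10) miR-181d-5p among the family counts, and end-point libraries 8.69% ± 9.91 (SD, n = 7). miR-181b-5p made up 9.12% ± 6.94 and 16.5% ± 10.8, miR-181c-5p 36.5% ± 12.0 and 48.9% ± 16.1, and miR-181a-5p 32.3% ± 7.51 and 25.9% ± 6.60, at the start- and end-point. The share of miR-181d-5p was 9.09% to 39.8% in start-point libraries, and end-point libraries 2, 4 and 5, at 28.2%, 13.4% and 9.48%, lay inside that range. Family counts per library ranged from 70 to 203 at the start-point and from 39 to 233 at the end-point. These shares were not tested separately, since they follow from the same counts as the levels.

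**Figure D2:**
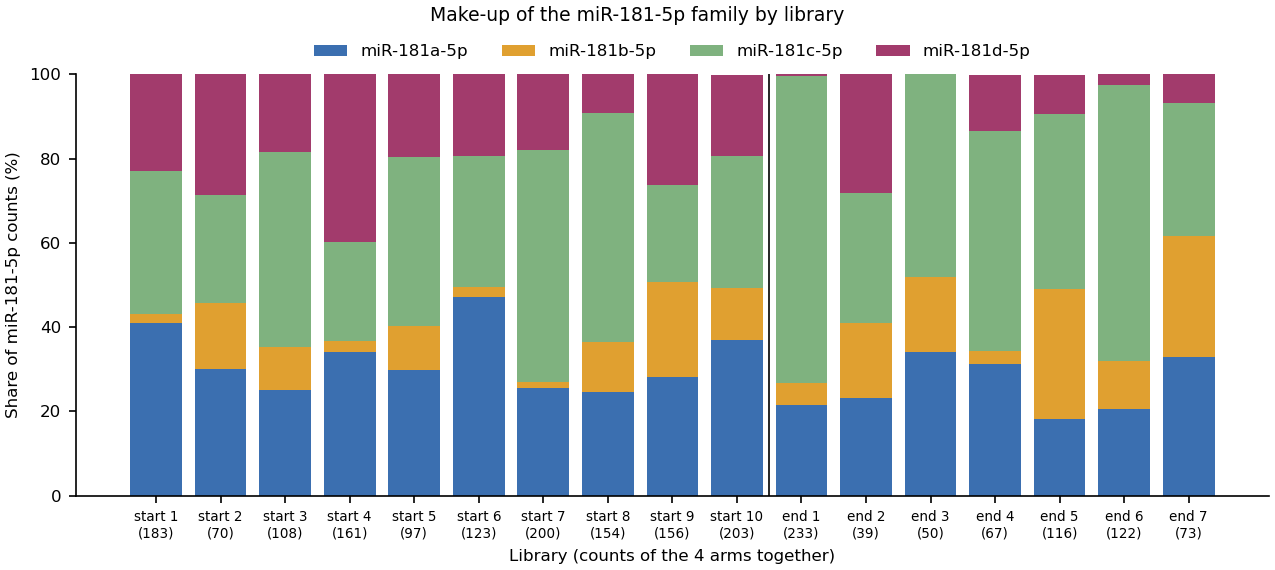
Share of each of the 4 miR-181-5p arms in their summed counts (vertical axis, percent) for each library (horizontal axis, with the summed counts in brackets), start-point libraries left of the line and end-point libraries right of it. miR-181b-5p is at 1.5% to 2.48% in start-point replicates 1, 4, 6 and 7, and miR-181c-5p reaches 73.0% in end-point library 1.

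The opposite arms of the miR-181 hairpins gave another reading of the same loci. Of 6 listed, 5 were in the table and 1 was called (20.0%, against 33.7% of all smRNAs), and 0 of 5 with library totals alone or with mouse as a block. miR-181c-3p rose by a log2 fold change of 1.52 ± 0.44 (SE; adjusted p 0.0107 by edgeR). Its start-point range was 64.4 to 497 CPM with a median of 145.3 CPM, and its end-point range 55.6 to 770 CPM with a median of 248 CPM. In log2 CPM with TMM factors it was higher in 6 of 6 mice. By library totals it was lower in mouse 9, with 264.2 CPM at the start-point and 225.1 CPM at the end-point. The 2 end-point libraries of mouse 1, averaged above, stood at 365.3 and 55.6 CPM, either side of its start-point level of 71.0 CPM. Start-point levels of miR-181c-3p were 64.4 to 89.8 CPM in the smaller cluster and 121.5 to 497 CPM in the larger. Such a separation was seen for 22.5% of all smRNAs tested. The call was lost without end-point library 4 (0.87, adjusted p 0.0753), with library totals alone (0.77, adjusted p 0.226) without the smaller cluster of start-point libraries (1.18, adjusted p 0.0995) and with mouse as a block (1.33, adjusted p 0.104, and 1.37, adjusted p 0.108, without the second library of mouse 1). The log2 ratio of miR-181c-5p to miR-181c-3p did not pass the test, at 1.25 ± 1.15 (SD, n = 10) and 0.86 ± 1.33 (SD, n = 7), a difference of -0.39 with an exact permutation p of 0.524.

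miR-181d-3p, the arm opposite miR-181d-5p, was by mean CPM the most abundant product of these hairpins and ranked 16 of 1487. In end-point libraries 5 and 7 it stood at 126.6 and 391.5 CPM, below miR-181b-2-3p at 253.2 and 673.4 CPM. The level of miR-181d-3p ranged from 901 to 13283 CPM at the start-point with a median of 7072 CPM, and from 127 to 59967 CPM at the end-point with a median of 1185 CPM. End-point libraries 1 and 4 were high, at 59967 and 10643 CPM, and the other 5 lay at or below 1640 CPM. The log2 fold change was 0.62 ± 0.83 (SE; adjusted p 0.586 by edgeR), with the opposite sign, -0.67, without end-point library 1. In every library the 3p arm exceeded the 5p arm, by a mean log2 ratio of 5p to 3p of -4.66 ± 1.28 (SD, n = 10) in start-point and -5.24 ± 3.54 (SD, n = 7) in end-point libraries, a difference of -0.58 with an exact permutation p of 0.65. miR-181a-2-3p (-0.29 ± 0.58), miR-181b-1-3p (0.04 ± 0.74) and miR-181b-2-3p (0.64 ± 0.62; log2 fold change, SE) were not called. miR-181a-1-3p was not analysed here.

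Between the 2 clusters of start-point libraries, the share of these miRNAs that separated was close to that of the whole table. miR-150-3p was at 61.8 to 85.9 CPM in replicates 1, 4, 6 and 7 and at 183 to 434 CPM in the other 6, and with miR-181b-5p this made 2 of 8 whose levels did not overlap between the clusters (25.0%), against 22.5% of all smRNAs tested. The clusters were formed from 1257 of those 1270 smRNAs and without the 8 miRNAs, so the 2 shares are not like for like. miR-142a-3p was higher in the smaller cluster, at a median of 2129 CPM (477 to 2858) against 161 CPM (80.0 to 1218), with replicate 10 of the larger cluster inside the range of the smaller. miR-342-3p had medians of 352 and 640 CPM, and miR-181a-5p, miR-181c-5p, miR-181d-5p and miR-150-5p overlapped as well. Removing the smaller cluster left 3 of 8 called (miR-342-3p, miR-150-3p and miR-181c-5p) against 28.4% of all smRNAs, and removing the larger left 1 of 7 tested (miR-181b-5p) against 20.7%.

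**Figure D3:**
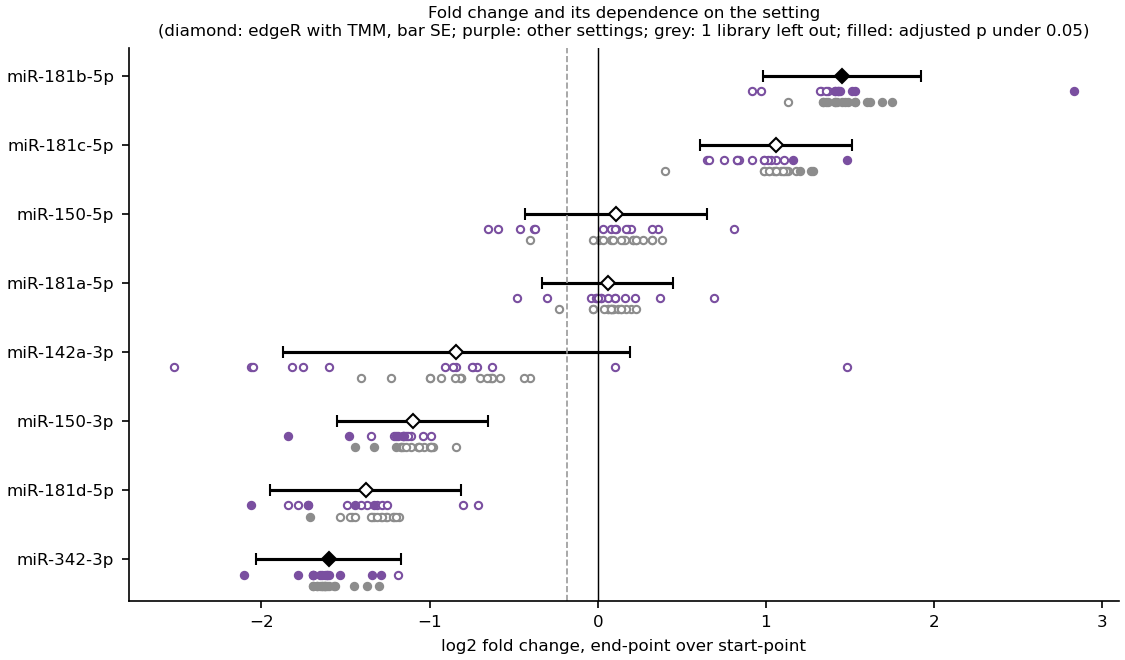
Log2 fold change of each of the 8 miRNAs, end-point over start-point, on the horizontal axis: diamonds with SE bars from edgeR with TMM factors, purple circles from the other settings and grey circles with 1 library left out, filled where the adjusted p was under 0.05. The dashed line is the median of all smRNAs tested, -0.18; miR-342-3p stays left of 0 and miR-181b-5p right of 0 in every setting shown, while miR-150-5p, miR-181a-5p and miR-142a-3p lie on both sides.

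With mouse as a block, which compares the time points within mice, 0 of 8 were called, against 8.19% of all smRNAs tested. The 2 called miRNAs kept their direction and size, at -1.61 (adjusted p 0.124) for miR-342-3p and 1.33 (adjusted p 0.226) for miR-181b-5p by edgeR. The median over the 8 was -0.84, beside -0.33 over all smRNAs tested.

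**Figure D4:**
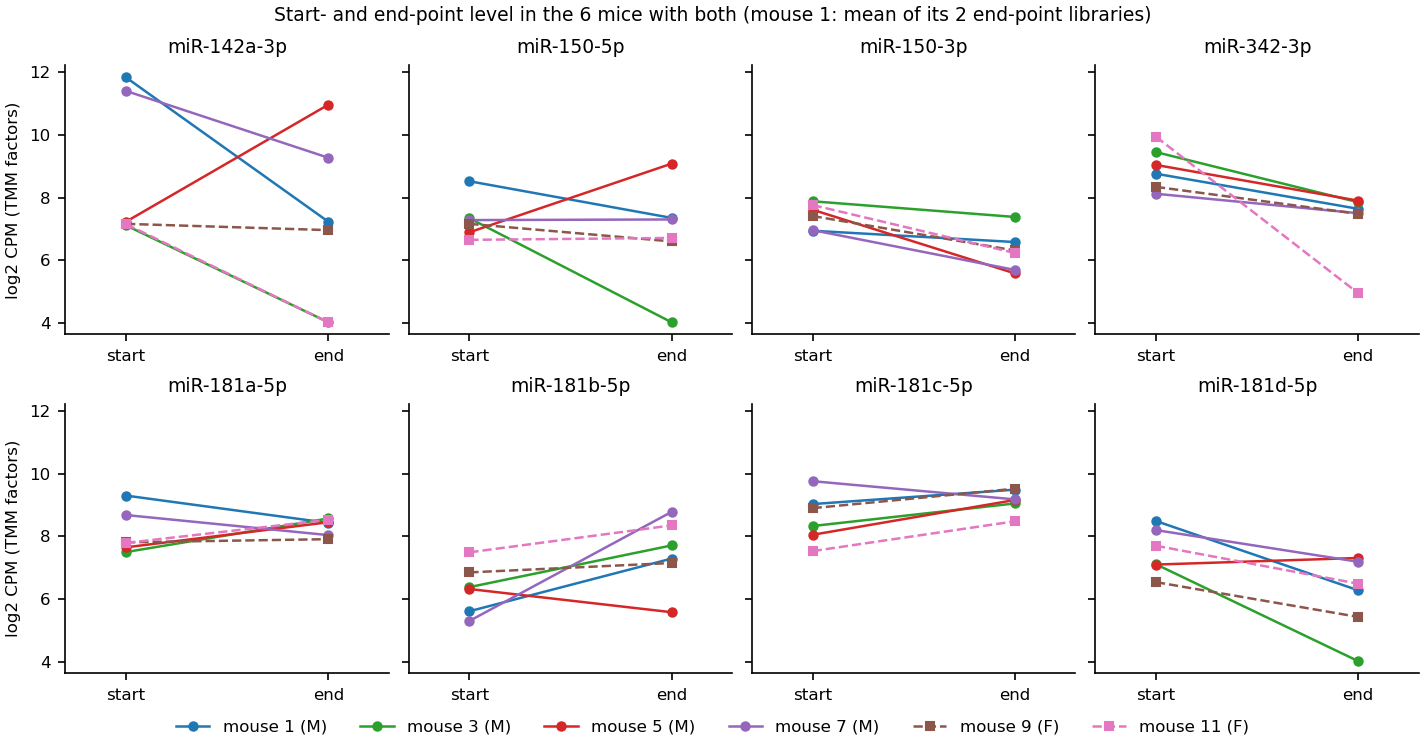
Log2 CPM (TMM factors, prior count 2) of each of the 8 miRNAs at the start- and end-point in the 6 mice with both, 1 line per mouse, males as solid lines and females as dashed lines. All 6 lines descend for miR-342-3p and miR-150-3p, and 5 of 6 ascend for miR-181b-5p.

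Sex was compared with time point as a covariate, and 0 of the 8 were called, as was 0.0% of the 1462 smRNAs tested with edgeR, although 9.58% had an unadjusted p under 0.05. No fit for sex or for its interaction with time point included mouse. Sex varies only between mice, and 6 mice gave libraries at both time points, so their repeat libraries were treated as independent. DESeq2 called 35 smRNAs for sex (5.02%), none of them among the 4 of the 8 to which it gave an adjusted p. The widest difference was in miR-142a-3p, at a log2 fold change of -2.71 ± 1.19 (SE), female against male, with an adjusted p of 0.491. At the start-point it averaged 537 ± 590 CPM (SD, n = 3) in females and 1135 ± 1190 CPM (SD, n = 7) in males. miR-181b-5p averaged 198 ± 64.2 CPM (SD, n = 3) and 51.9 ± 39.3 CPM (SD, n = 7) in the same groups. All 4 libraries of the smaller cluster were male, at 17.5 to 32.2 CPM. In the larger cluster the 3 males were at 65.5 to 125.7 CPM and the 3 females at 144.1 to 269 CPM. These start-point levels rest on 3 to 35 counts. Neither split was tested, and how many of all smRNAs divide in the same way was not counted. The interaction of sex and time point called 0 of the 8 and 0 of 1462 smRNAs with edgeR, where 93 (6.36%) passed 0.05 before adjustment, and DESeq2 called 3 (0.335%), none among the 5 of the 8 with an adjusted p. Only 2 end-point libraries were female.

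Across the 17 libraries the 8 miRNAs did not vary as 1 group. Over their 28 pairs, Spearman's rho of log2 CPM ranged from -0.69 to 0.75 with a median of -0.08, and 12 of 28 were positive. The libraries share time point, depth and cluster, so these values are a description. By the same measure, the 3 smRNAs most like miR-142a-3p were miR-7027-5p (rho 0.95), miR-496b and miR-1b-5p. For miR-150-5p they were miR-7685-5p (0.75), miR-7681-3p and miR-429-3p, and for miR-150-3p miR-673-3p (0.92), miR-7067-3p and miR-345-3p. miR-342-3p was most like miR-1843b-3p (0.89), miR-6952-3p and miR-208a-3p. Within the 10 start-point libraries alone, rho with these 3 was 0.49, 0.66 and 0.33. For the 3 nearest to miR-142a-3p it was 0.94, 0.89 and 0.96 there. For miR-181a-5p the 3 were miR-7003-3p (0.89), miR-5620-5p and miR-7212-5p, for miR-181b-5p miR-7020-3p (0.86), miR-6970-3p and miR-540-3p, for miR-181c-5p miR-7212-5p (0.72), miR-6958-5p and miR-7671-3p, and for miR-181d-5p miR-5134-5p (0.90), miR-92b-5p and miR-676-5p. None of the 8 was among the 3 smRNAs nearest to another of the 8.

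Of 24 other miRNAs linked to lymphocyte development or activation, among them members of the miR-17 to miR-92 cluster, miR-155 and miR-146a, 17 were in the table and 15 passed the filter. One was called (6.67%, beside 33.7% of all smRNAs tested): miR-19a-3p, of the miR-17 to miR-92 cluster, fell by 1.25 on the log2 scale (SE 0.41, adjusted p 0.0206 by edgeR). It ranged from 163 to 531 CPM at the start-point and from 30.9 to 217 CPM at the end-point, with all 7 end-point libraries below the start-point median and an overlap between the groups. The call was lost without end-point library 7 (-1.12, adjusted p 0.0564), without the 3 libraries under 75000 counts (-1.03, adjusted p 0.111) and without the smaller cluster of start-point libraries (-0.95, adjusted p 0.103). It was also lost with mouse as a block (-1.51, adjusted p 0.0823 by edgeR, and -1.47, adjusted p 0.118, without the second library of mouse 1) and in male libraries only (-1.39, adjusted p 0.077). The count itself moved with the setting: 4 of 15 were called with library totals alone, all lower (26.7%, against 37.8% of all smRNAs), and 0 with mouse as a block. In the deeper libraries 2 of 17 were called, both higher (miR-15a-5p and miR-16-5p; 11.8%, against 33.6%). With TMM factors and all libraries the median of the 15 was -0.29, with 11 negative values.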

How the data were processed

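The authors deposited whole-number counts per smRNA and library, named as raw read counts. Per the labels' protocols, libraries were made with the QIAseq miRNA kit, which adds unique molecular identifiers; whether they were used to collapse PCR copies, the aligner, the counter and the annotation are not given in the sources used here. The submitters' processing notes name GRCm38 and bcl2fastq. Libraries were grouped by the labelled time point, and mouse identity and sex came from the labels. The members and lists were chosen with earlier results of these data known.

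Tests used edgeR 4.0.16, quasi-likelihood (R 4.3.3; TMM factors of 0.419 to 1.92, filterByExpr), on the whole table, with Benjamini-Hochberg adjustment; a miRNA was called at an adjusted p under 0.05. Printed CPM use library totals, while fold changes include TMM factors. Floors of 3 counts cover counting error only. Libraries of a group came from separate mice, except the 2 end-point libraries of mouse 1, and no 2 libraries of a group agreed within sampling noise (chi-square per degree of freedom at least 10.1). Arm ratios used 0.5 added counts and exact two-sided permutation over 19448 choices of 7 of 17 libraries; those of miR-181c and miR-181d were added after seeing the data, and those of miR-142a and miR-342 could not be computed. Named are all listed arms, their opposite arms, the called miRNAs of the other lists, and the 3 smRNAs most correlated with each (Spearman, log2 CPM, prior count 2).

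The libraries pair by mouse in the labels. Deviations from group means correlated by 0.094 on average over 7 same-mouse pairs (-0.072 to 0.26). Alternatives were other scalings and filters, DESeq2 1.42.0, limma 3.58.1, mouse as a block, and subsets of libraries. Scripts were tested on simulated data.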

Additional observations from a re-analysis of the deposited data

Results flagged for a closer look

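Values standing apart from the other libraries of their group were looked for in 22 groups, and 4 were found. The limits used flag about 1 in 20 groups of normally distributed values. CPM of several miRNAs were skewed upward, so the number found cannot be set against that rate. miR-150-5p was at 282 CPM (33 counts) in end-point library 4, with the next highest at 110 CPM. miR-181c-5p was at 3105 CPM (170 counts) in end-point library 1, with the next at 743 CPM. miR-342-3p was at 1590 CPM (207 counts) in start-point library 9, with the next at 811 CPM. The log2 ratio of miR-181d-5p to miR-181d-3p was -1.67 in start-point library 10, with the next highest at -3.86.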

How the results depend on the processing

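The number of the 8 miRNAs called was 2 with edgeR and 4 with DESeq2 (37.3% of all smRNAs), 4 with the end-point libraries of mouse 1 summed (36.4%), 0 with mouse as a replicate block with or without the second end-point library of mouse 1 (8.19% and 6.49%), 1 in male libraries only (17.6%, 7 tested) and 1 without the larger cluster of start-point libraries (20.7%), an alternative chosen after seeing the data like that without the smaller cluster and the earlier edgeR method. Leaving out 1 library gave 1 to 4 (1 without end-point library 5, against 32.0% of all smRNAs, and 4 without end-point library 2, against 32.6%). miR-342-3p was called in 12 of 15 alternatives and miR-181b-5p in 8 of 14, always in the same direction. miR-181b-5p missed the threshold with limma-voom (1.37, adjusted p 0.0505). miR-150-3p passed it in 6 of 14 alternatives, miR-181d-5p in 5 of 15 and miR-181c-5p in 2 of 15. The random block in limma-voom called miR-342-3p and miR-181d-5p.

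The sign of uncalled fold changes turned as follows (log2). miR-142a-3p gave 0.10 without the libraries under 75000 counts and 1.48 without the smaller cluster. miR-150-5p gave -0.65 with library totals, -0.38 with limma-voom, -0.37 with its random block, -0.46 and -0.59 with mouse as a block. miR-181a-5p gave -0.01 with DESeq2 and its size factors, -0.04 with library totals, -0.30 in the deeper libraries, -6.4e-05 in males and -0.48 without the larger cluster. miR-181a-2-3p gave 0.18 with the block, 0.12 in the deeper libraries and 0.61 without the smaller cluster. miR-181b-1-3p gave -1.03 with library totals, -1.31 and -1.30 with limma-voom, -0.87 and -1.87 with the block and -0.22 with mouse 1 summed. miR-181b-2-3p gave -0.63 in males and -0.03 without the larger cluster. miR-181d-3p gave -1.18 and -1.16 with limma-voom, -1.90 and -1.85 with the block and -0.02 in the deeper libraries. Leaving out 1 library gave -0.40 to 0.38 for miR-150-5p, -0.23 to 0.23 for miR-181a-5p, -0.42 to 0.04 for miR-181a-2-3p, -0.88 to 0.42 for miR-181b-1-3p and -0.67 to 0.89 for miR-181d-3p. For sex, library totals gave 0.05, 0.32 and 0.09 for miR-150-5p, miR-150-3p and miR-342-3p, and the deeper libraries 0.32 for miR-150-3p. For the interaction, miR-150-3p gave 0.98 and miR-181c-5p 1.31 in the deeper libraries, and miR-181a-5p -0.69 with library totals. The arm ratio difference of miR-150 was 2.23 (exact p 0.005, unadjusted) in the deeper libraries and 0.18 to 1.45 with 1 library left out. That of miR-181d was 0.50 in the deeper libraries, 0.44 within mice (replicate block) and -1.38 to 0.39 with 1 left out. The cause of these turns was not tested.

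Depth limits the end-point values: miR-142a-3p had 0 counts in the 3 shallowest libraries, and medians of 12 counts or fewer stand behind 6 of the 8 miRNAs there.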
